A study of Mus musculus with 12 samples.

Results

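Interferon regulatory factors (IRFs) and their STAT partner were examined in GL261 tumours of mice given temozolomide (TMZ), an antibody against PD-1, both agents or neither. The members are 9 named genes: Stat2, Irf1, Irf2, Irf3, Irf5, Irf7, Irf8, Irf9 and Socs1. A member counted as measured where the array's annotation gave a probe set to that symbol alone, and where several did, the brightest on average was used. This held for 8 of the 9 members, among 22180 genes measured in all. The 1 probe set for Irf5 (17456692) also names Tnpo3, so Irf5 has no value of its own here.

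GL261 is a mouse glioma line that forms tumours in C57BL/6 mice with an intact immune system. Male mice aged 8 weeks received the cells in the brain, per the labels, and total RNA was taken from the tumour mass on day 16. Each of 4 groups has 3 arrays: Control, TMZ (30 mg/kg into the peritoneum), Anti-PD-1 (an intravenous dose of 10 mg/kg given 2 times a week) and Combination, which received both agents. All 4 groups carry the same implanted line. The labels give neither the dosing days nor the treatment of Control animals, and they do not say that each array came from its own animal, so the p values measure the spread between arrays.

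Interferons act through receptors whose JAK kinases phosphorylate STAT proteins. Type I interferon, the antiviral form made by most cells, assembles STAT2 with a partner STAT and IRF9 into the complex ISGF3, which binds the interferon-stimulated response element (ISRE). Interferon gamma, made by T and natural killer cells, acts through a STAT dimer at gamma-activated sites (GAS), and IRF1 is among its first products. In tumours this pathway controls antigen presentation and the recruitment of lymphocytes, and in brain it is active in microglia and infiltrating myeloid cells.

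The 250 bases before the annotated start were read from RefSeq (GRCm38.p6) for all 9 members, which have 12 starts in that table. They were searched on both strands for an ISRE core (GAAA, any 2 bases, GAAA) and a GAS (TTC, any 3 bases, GAA). The 5 windows that hold a match are shown 5′ to 3′ in the gene's direction, because these are the elements that STAT and IRF proteins bind. Capitals mark the matches, which are an ISRE core in Stat2, Irf2 and Socs1 and a GAS in Irf1, Irf2 and Irf8. The windows lie at chr11:53769764-53770013 (+ strand), chr8:120736108-120736357 (+ strand), chr16:10785537-10785786 (- strand), chr10:128270248-128270497 (+ strand) and chr8:46739495-46739744 (+ strand).

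Irf1: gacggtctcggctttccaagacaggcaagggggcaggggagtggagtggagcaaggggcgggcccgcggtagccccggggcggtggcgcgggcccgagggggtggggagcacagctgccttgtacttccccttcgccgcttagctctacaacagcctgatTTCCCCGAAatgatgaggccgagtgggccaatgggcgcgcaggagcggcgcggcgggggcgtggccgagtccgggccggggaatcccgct

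Irf8: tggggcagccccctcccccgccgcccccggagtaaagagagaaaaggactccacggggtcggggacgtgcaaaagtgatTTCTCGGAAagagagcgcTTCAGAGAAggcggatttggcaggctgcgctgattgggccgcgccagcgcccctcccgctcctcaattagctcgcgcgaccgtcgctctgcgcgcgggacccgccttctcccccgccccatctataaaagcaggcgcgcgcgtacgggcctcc

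Socs1: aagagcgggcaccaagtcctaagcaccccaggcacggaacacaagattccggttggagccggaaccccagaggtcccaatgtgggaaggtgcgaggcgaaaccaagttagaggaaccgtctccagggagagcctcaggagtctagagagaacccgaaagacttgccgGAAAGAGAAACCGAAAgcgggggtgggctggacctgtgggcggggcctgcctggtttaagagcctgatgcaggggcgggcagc

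Stat2: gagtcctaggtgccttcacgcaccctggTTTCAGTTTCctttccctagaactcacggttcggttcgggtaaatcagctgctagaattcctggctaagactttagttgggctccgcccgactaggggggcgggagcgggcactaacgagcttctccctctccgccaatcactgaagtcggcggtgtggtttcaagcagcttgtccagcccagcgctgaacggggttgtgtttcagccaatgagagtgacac

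Irf2: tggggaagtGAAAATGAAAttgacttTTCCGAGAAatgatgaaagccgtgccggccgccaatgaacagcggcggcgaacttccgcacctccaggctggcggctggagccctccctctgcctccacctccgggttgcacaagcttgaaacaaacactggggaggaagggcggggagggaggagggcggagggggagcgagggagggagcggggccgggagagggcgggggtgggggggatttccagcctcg

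Socs1 holds 2 overlapping ISRE cores, between 83 and 68 bases before its start. Irf8 holds 2 GAS matches and Irf1 holds 1, between 90 and 82 bases before its start. Irf2 holds both motifs. Of all 32851 promoters in the table, 2.98% hold the ISRE core and 7.02% the GAS in a window of this length. Irf3, Irf5, Irf7 and Irf9 had no match in these windows. A match describes the letters only, and no binding was measured.

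The signals are log2 RMA values, so a difference of 1 is a doubling. Any pair of arrays correlated at r = 0.984 to 0.991 over the probe sets. On the first principal component, which held 26.6% of the variance, Control replicates 1 and 2 stood apart at 20.1 and 26.4. Control replicate 3, at 1.28, fell inside the span of the 9 treated arrays (-13.9 to 4.10). Brain cell markers were well represented, with a mean log2 signal of 10.09 over 13 neuron markers and 9.24 over 9 astrocyte markers. The amount of brain in each sample is not stated.

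In the tumours, 6 of the 8 measured members had lower mean signal than Control in every treated group: Stat2, Irf1, Irf7, Irf8, Irf9 and Socs1. This pattern held for 29.8% of all genes. Irf2 and Irf3 differed from their Control means by at most 0.14 log2. For 4 members, Irf7, Irf1, Stat2 and Irf9, the group means ran from Control through Combination and TMZ to Anti-PD-1. No member passed the threshold (adjusted p under 0.05, Benjamini-Hochberg over all genes) in any comparison by limma, the linear model fitted to all 12 arrays. In these bulk samples, fewer cells of a type and less RNA per cell cannot be told apart.

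**Figure D1:**
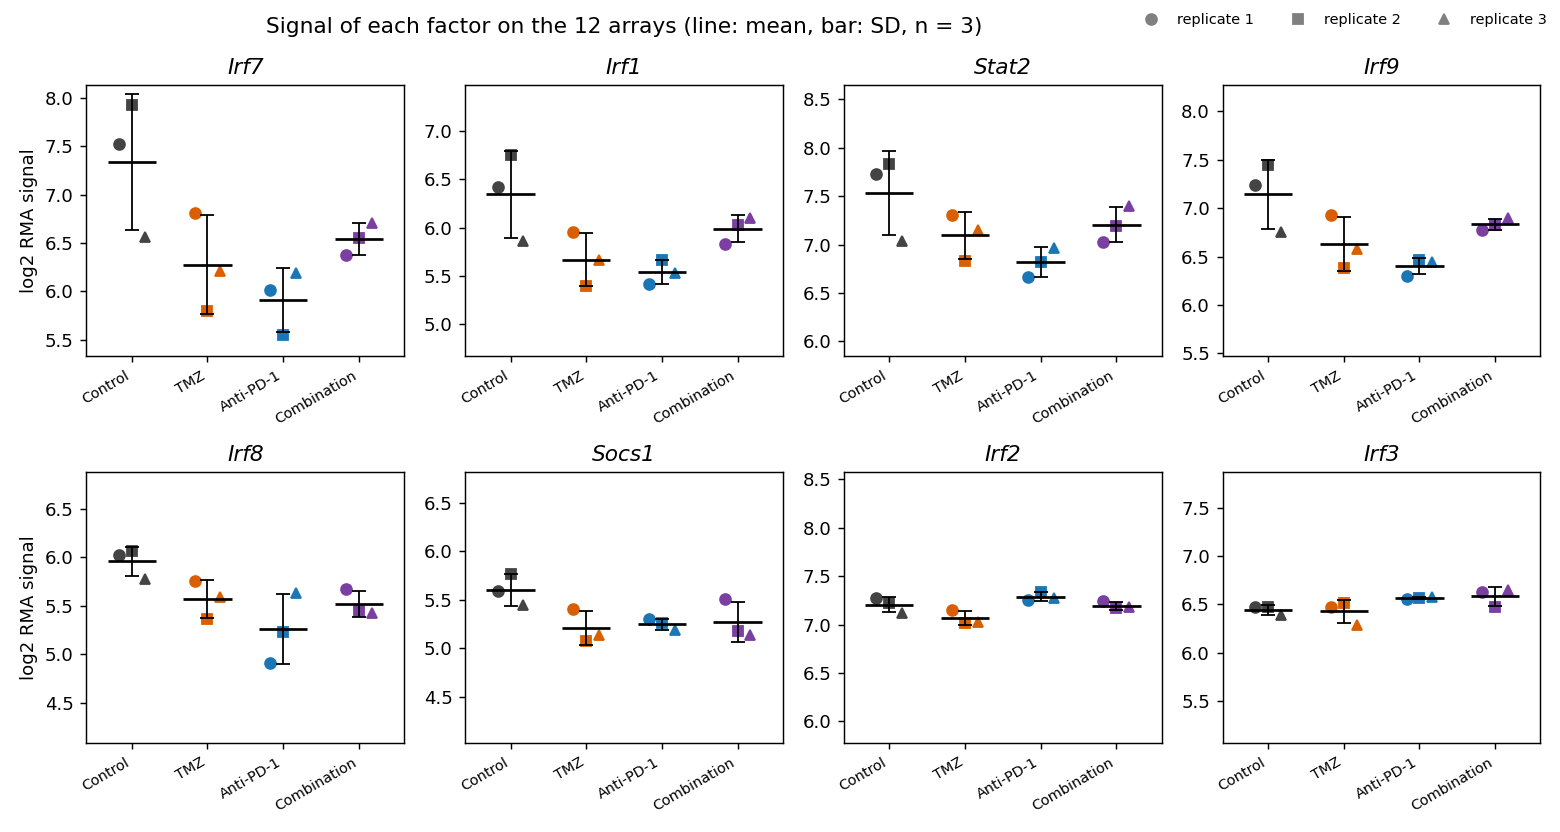
Log2 RMA signal (y axis) of the 8 measured factors on every array, by group (x axis). Symbols give the replicate number, lines the mean and bars the SD of 3 arrays, and every panel spans 2.8 log2 units. Control replicate 3 (triangle) lies below the other Control arrays, and Irf2 and Irf3 vary least.

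Irf7 is the inducible factor that amplifies type I interferon production, and its signal varied most, over 2.38 log2 units. Its probe set read 7.52, 7.92 and 6.56 in Control and 6.81, 5.80 and 6.21 in TMZ. It read 6.01, 5.54 and 6.19 in Anti-PD-1 and 6.37, 6.56 and 6.70 in Combination. All Anti-PD-1 arrays lay below all Control arrays, whereas TMZ and Combination each overlapped Control, through Control replicate 3. Control alone spanned 57.3% of the range of Irf7 over all arrays. The log2 differences from Control were -1.06 ± 0.32 (SE) in TMZ, -1.42 ± 0.32 in Anti-PD-1 and -0.79 ± 0.32 in Combination. The Anti-PD-1 signal was 2.68-fold lower, with an adjusted p = 0.0885.

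Irf1, the early interferon gamma response factor that drives antigen presentation genes, read 6.42, 6.75 and 5.86 in Control. It read 5.95, 5.40 and 5.66 in TMZ, 5.41, 5.66 and 5.53 in Anti-PD-1, and 5.83, 6.03 and 6.10 in Combination. The Anti-PD-1 arrays lay within 0.25 log2 of each other and below every Control array. Irf1 in Control replicate 3 was below TMZ replicate 1 and below Combination replicates 2 and 3. The differences from Control were -0.67 ± 0.20 in TMZ, -0.81 ± 0.20 in Anti-PD-1 (1.75-fold lower, adjusted p = 0.1005) and -0.36 ± 0.20 in Combination.

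Stat2 and Irf9 encode subunits of ISGF3, the complex that type I interferon assembles. Stat2 read 7.73, 7.84 and 7.03 in Control, 7.30, 6.83 and 7.15 in TMZ, 6.66, 6.82 and 6.97 in Anti-PD-1, and 7.03, 7.19 and 7.40 in Combination. Irf9 read 7.24, 7.44 and 6.75 in Control, 6.93, 6.38 and 6.58 in TMZ, 6.30, 6.47 and 6.44 in Anti-PD-1, and 6.78, 6.82 and 6.90 in Combination. Both subunits separated Anti-PD-1 from Control and overlapped Control in the other treated groups. In Anti-PD-1 the differences were -0.72 ± 0.19 for Stat2 (adjusted p = 0.135) and -0.74 ± 0.16 for Irf9 (1.67-fold lower, adjusted p = 0.0815), the smallest adjusted p of any member. The differences in TMZ were -0.44 ± 0.19 and -0.52 ± 0.16, and in Combination -0.33 ± 0.19 and -0.31 ± 0.16.

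Irf8 directs the development of microglia, monocytes and dendritic cells. Its brighter probe set (17506279) read 6.03, 6.06 and 5.78 in Control and 5.75, 5.36 and 5.59 in TMZ. It read 4.91, 5.23 and 5.63 in Anti-PD-1 and 5.67, 5.45 and 5.43 in Combination. Irf8 was the 1 member whose Control arrays lay above all arrays of every treated group, by 0.03 log2 at the narrowest, a separation that 1.87% of all genes showed. The differences were -0.39 ± 0.16 in TMZ, -0.70 ± 0.16 in Anti-PD-1 (adjusted p = 0.0945) and -0.44 ± 0.16 in Combination. A second, dimmer Irf8 probe set (17548703) disagreed and did not separate Control, with group means of 4.45, 4.39, 4.54 and 4.53 and differences of -0.06, 0.09 and 0.08 in the same order.

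Socs1, the interferon-induced inhibitor of JAK kinases, read 5.59, 5.77 and 5.44 in Control, 5.41, 5.08 and 5.13 in TMZ, 5.30, 5.26 and 5.18 in Anti-PD-1, and 5.51, 5.17 and 5.14 in Combination. TMZ and Anti-PD-1 lay below Control without overlap, and Combination replicate 1 reached into the Control range. Unlike the 5 genes above, Socs1 had nearly equal mean differences in the 3 treated groups, at -0.40, -0.35 and -0.33 with an SE of 0.12 each. Differences between the treated groups were not called.

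Irf2, which binds the sites of IRF1 and mostly represses them, read 7.28, 7.23 and 7.12 in Control, 7.15, 7.02 and 7.03 in TMZ, 7.26, 7.34 and 7.27 in Anti-PD-1, and 7.24, 7.17 and 7.18 in Combination. Its differences from Control were -0.14 ± 0.06, 0.08 ± 0.06 and -0.01 ± 0.06. The 3 Anti-PD-1 arrays lay above the 3 TMZ arrays (TMZ minus Anti-PD-1 -0.23 ± 0.06), which was not called (adjusted p = 1.0). Irf3, the constitutive factor activated by kinases downstream of nucleic acid sensors, read 6.48, 6.48 and 6.39 in Control, 6.48, 6.51 and 6.29 in TMZ, 6.56, 6.57 and 6.58 in Anti-PD-1, and 6.63, 6.47 and 6.65 in Combination. The 3 Anti-PD-1 arrays lay just above all Control arrays. The 95% intervals of its difference from Control were -0.18 to 0.14 in TMZ, -0.04 to 0.28 in Anti-PD-1 and -0.02 to 0.30 in Combination. The data therefore bound any difference in Irf3 more narrowly than one in Irf7, whose Anti-PD-1 interval ran from -2.13 to -0.72.

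Irf1 and Irf2 compete for the same sites, and their signals were also subtracted within each array, a step chosen after the values were seen and given without a test. Irf1 minus Irf2 was -0.85, -0.48 and -1.26 in Control and -1.84, -1.68 and -1.74 in Anti-PD-1. It was -1.20, -1.62 and -1.37 in TMZ and -1.41, -1.14 and -1.08 in Combination. The Anti-PD-1 arrays lay below all others. Irf7 minus Irf3, subtracted in the same way, did not set Anti-PD-1 apart. It was -0.55, -1.03 and -0.39 there, and TMZ replicate 2 was at -0.71. How often other gene pairs separate the groups is not known here. These values compare change and not level, because probe sets differ in brightness.

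The probe set shared by Irf5, a factor of myeloid cells downstream of Toll-like receptors, and Tnpo3, a nuclear import receptor, averaged 5.16 ± 0.23 (SD, n = 3) in Control. It averaged 4.92 ± 0.03 in TMZ, 4.89 ± 0.30 in Anti-PD-1 and 4.99 ± 0.16 in Combination. Which gene the signal belongs to cannot be told apart, and it enters no count of members.

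**Figure D2:**
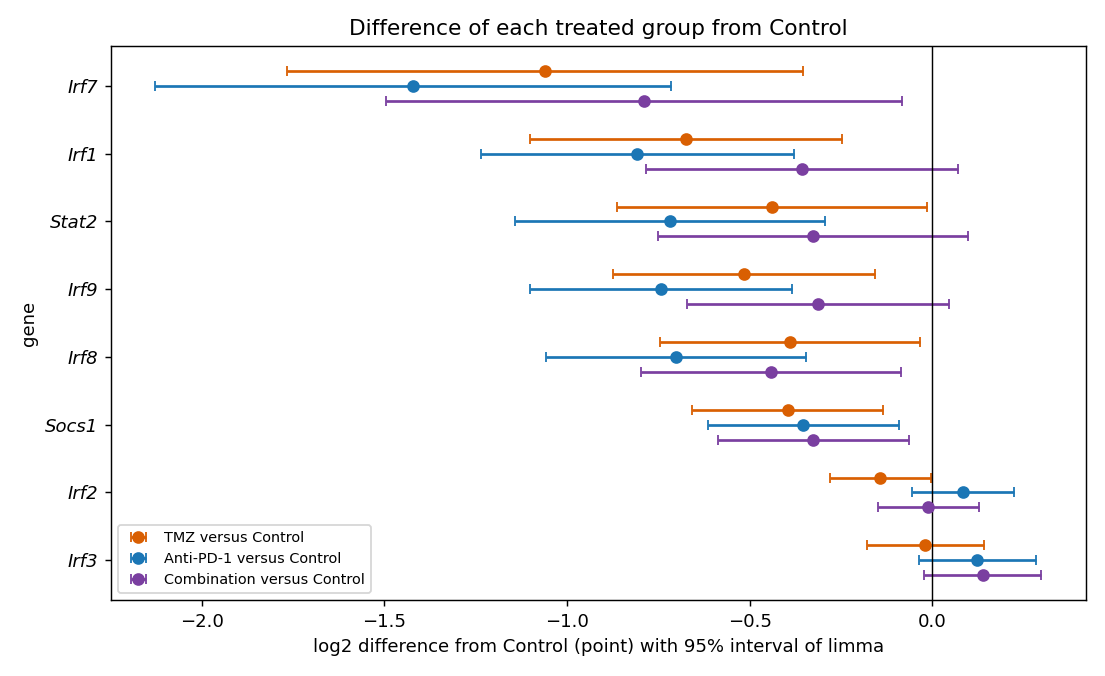
Log2 difference of each treated group from Control (x axis) for each gene (y axis), with the 95% interval of limma. The intervals of Irf7, Irf8 and Socs1 lie below 0 in all 3 comparisons before adjustment over all genes, and those of Irf3 include 0 in all 3.

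TMZ was compared with Control to see what the alkylating agent alone did to these genes. All 8 members had a lower mean, with a median difference of -0.42 against 0.01 over all genes. limma called 0 of 8, where it called 0.0992% of all genes, and 7 of 8 had an unadjusted p under 0.05, as did 11.3% of all genes. Irf8 and Socs1 were the 2 members whose TMZ arrays all lay below Control, which 6.81% of all genes did. The smallest adjusted p was 0.236, for Irf1.

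Anti-PD-1 was set against Control to read the antibody alone. The mean differences of Stat2, Irf1, Irf7, Irf8 and Irf9 were wider here than in the other treated groups, those of Socs1 and Irf2 were wider in TMZ and that of Irf3 in Combination. The comparisons between treated groups called 0 members. The median difference was -0.71, against 0.01 over all genes. Without overlap, 6 of 8 members were lower, compared with 8.33% of all genes, and Irf3 was higher, as were 10.3%. limma called 0 of 8 (0.293% of all genes), with 6 of 8 under an unadjusted p of 0.05, as were 13.5% of all genes. Adjusted p ran from 0.0815 to 0.135 for Irf9, Irf7, Irf8, Irf1 and Stat2. Passing depended on the setting. An intensity trend in the spread model called 5 of 8 members (1.72% of all genes), array weights called 3 (1.17%), and a filter on mean signal called 1, Irf9 (1.08%). In the other direction, with the neuron marker score as a covariate Irf7 was at -0.58, Irf9 at -0.38, Irf1 at -0.37 and Stat2 at -0.32, and 0 members were called. The same covariate put Irf7 at -0.57, Irf1 at -0.42, Irf9 at -0.31 and Stat2 at -0.21 in TMZ, and at -0.38, -0.15, -0.14 and -0.14 in Combination.

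Combination was compared with Control for the effect of both agents, and the mean differences were nearest to 0 of the 3 comparisons for Stat2, Irf1, Irf2, Irf7, Irf9 and Socs1. The median was -0.33, and 3 of 8 members, Irf7, Irf8 and Socs1, had an unadjusted p under 0.05, as did 11.6% of all genes. limma called 0 of 8, and 0% of all genes. Irf8 alone lay below Control without overlap, as did 7.82% of all genes.

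Adding TMZ to the antibody was read from Combination against Anti-PD-1. Stat2, Irf1, Irf7 and Irf9 were higher in all 3 Combination arrays than in any Anti-PD-1 array, a separation seen in 4.87% of all genes. The differences were 0.39 ± 0.19, 0.45 ± 0.20, 0.63 ± 0.32 and 0.43 ± 0.16. None was called in limma (adjusted p = 0.9996 for each, 0% of all genes), and 2 of the 4, Irf1 and Irf9, had an unadjusted p under 0.05 (0.0408 and 0.0229). Combination against TMZ and TMZ against Anti-PD-1 also called 0 members and 0% of all genes. In Irf2, Combination lay above TMZ and below Anti-PD-1 without overlap (0.13 ± 0.06 and -0.09 ± 0.06), as did 3.81% and 5.67% of all genes. TMZ lay below Anti-PD-1 without overlap in Irf2 and Irf3, as in 4.39% of all genes.

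The interaction asks whether both agents together gave the sum of their single effects. It was positive for all 8 members, meaning that Combination lay above that sum, with a median of 0.74 against -0.02 over all genes. It was 1.69 ± 0.46 for Irf7, 1.12 ± 0.28 for Irf1, 0.95 ± 0.23 for Irf9, 0.83 ± 0.27 for Stat2, 0.65 ± 0.23 for Irf8 and 0.42 ± 0.17 for Socs1, with adjusted p from 0.259 to 0.492. Irf2 and Irf3 were at 0.05 ± 0.09 and 0.03 ± 0.10. limma called 0 of 8 (0.00451% of all genes) for the interaction, with 6 of 8 under an unadjusted p of 0.05, as were 8.92% of all genes. The F test over the 4 groups also called 0 of 8 (0.00451% of all genes), and 7 of 8 had an unadjusted p under 0.05, as did 10.1% of all genes. With the neuron covariate the interaction was 0.77 for Irf7, 0.65 for Irf1, 0.55 for Irf9 and 0.40 for Stat2, and the second Irf8 probe set gave 0.05 ± 0.24. The interaction uses the same Control arrays as the comparisons above.

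Whether members passed also depended on Control replicate 3. Without it, limma called Stat2, Irf1, Irf7 and Irf9 in TMZ (-0.69, -0.92, -1.45 and -0.71), where 1.64% of all genes were called. It called the same 4 and Irf8 in Anti-PD-1 (-0.97, -1.05, -1.81, -0.94 and -0.79), where 3.09% were called. The same 4 were called in the interaction (1.08, 1.37, 2.08 and 1.14; 0.893% of all genes), and the F test called 4 members (1.1%). Combination against Control still called 0 members (1.27% of all genes), with Irf7 at -1.18 (adjusted p = 0.0732), Irf1 at -0.60, Stat2 at -0.58 and Irf9 at -0.51. Without Control replicate 2, the Combination differences were instead -0.50 for Irf7, -0.15 for Irf1, -0.17 for Stat2 and -0.16 for Irf9, and Stat2 was at -0.29 in TMZ. In each of the 11 other fits that left out 1 array, 0 members were called in any comparison. Leaving out Control replicate 3 leaves 2 Control arrays, so the spread there rests largely on the other groups.

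**Figure D3:**
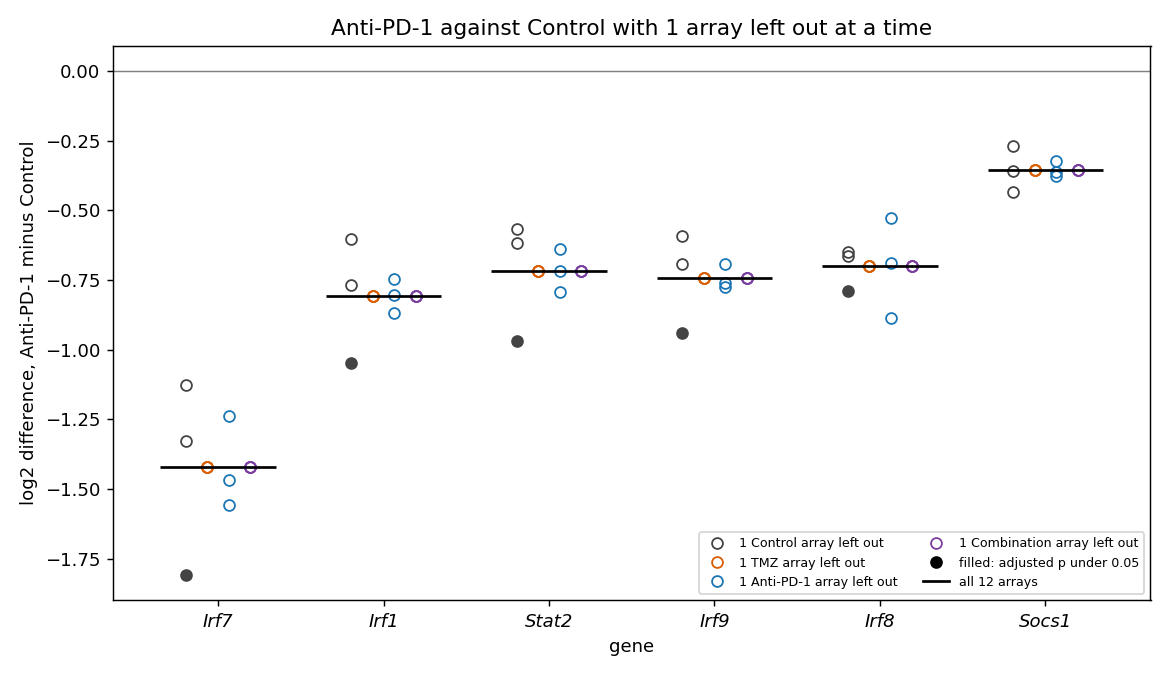
Log2 difference between Anti-PD-1 and Control (y axis) for 6 genes (x axis) when 1 array is left out at a time, coloured by the group of that array. Filled points passed the threshold, and black lines give the value with all 12 arrays. The filled points are Irf7, Irf1, Stat2, Irf9 and Irf8, all from the same fit, which left out Control replicate 3.

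The members varied together across arrays to different degrees. Over the 12 arrays Stat2, Irf1, Irf7 and Irf9 correlated with each other at r from 0.94 to 0.98, and at 0.85 to 0.98 after each group's mean was removed. Without Control replicates 1 and 2 these correlations were 0.79 to 0.96. Irf8 correlated with those 4 at 0.75 to 0.82, or 0.49 to 0.64 without the 2 Control arrays. Socs1 did so at 0.62 to 0.76, or -0.02 to 0.36 without them, so its relation to those 4 genes rested on those arrays. Irf2 and Irf3 correlated with the other 6 members at -0.33 to 0.40 over all arrays, although Irf2 reached 0.76 with Irf9 once group means were removed. These are descriptions over 12 arrays that share groups and tissue makeup.

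**Figure D4:**
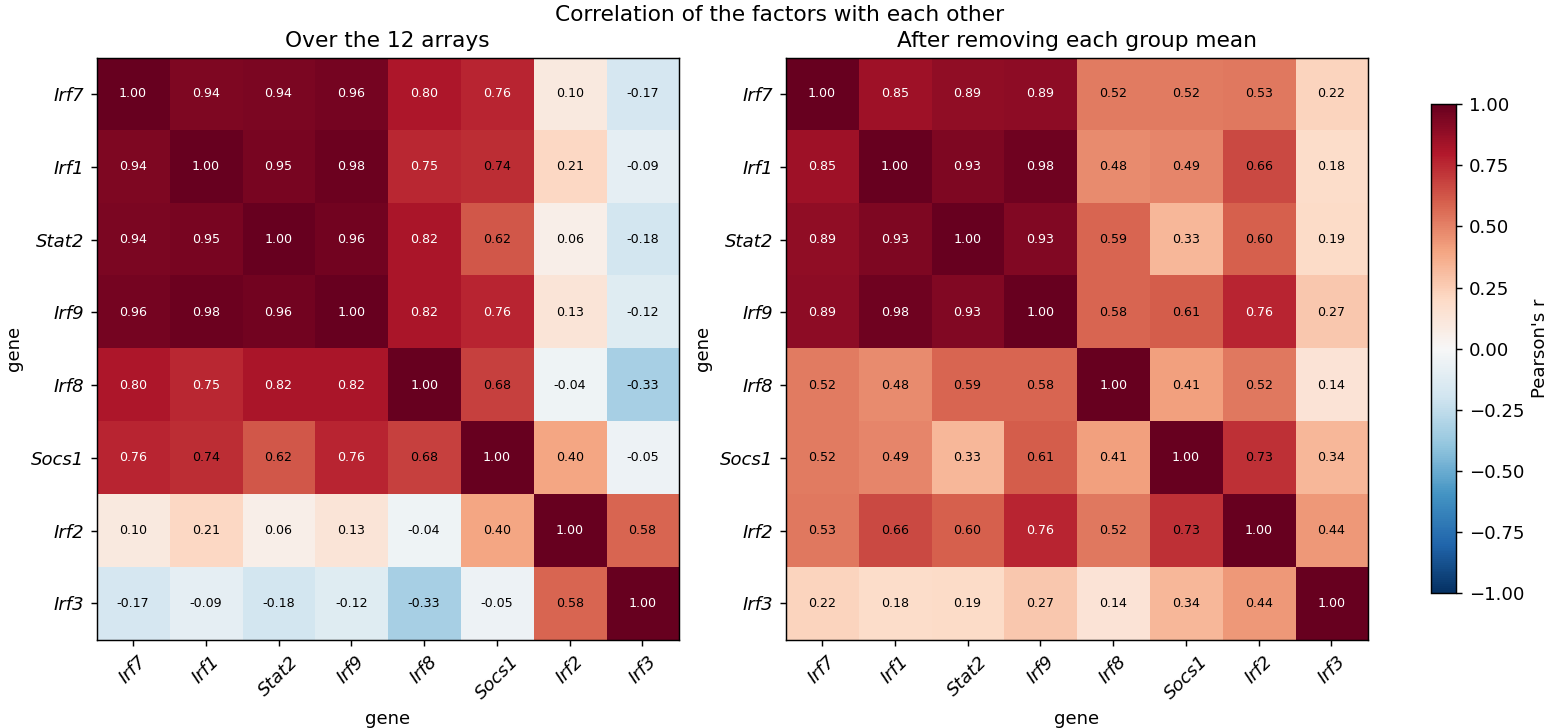
Pearson's r between the 8 measured factors (both axes), over the 12 arrays (left) and after removing each group's mean (right). Irf7, Irf1, Stat2 and Irf9 form a block of 0.94 and above on the left, and Irf3 stays between -0.33 and 0.58.

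The genes most like each member in this sense were sought among 12841 genes with a mean log2 signal of at least 5. Nearest to Stat2 were Rtp4 (r = 0.98), Irgm1 (0.98) and Clic1 (0.97). Irf1 was nearest to Irf9, Epsti1 and the immunoproteasome subunit Psmb8 (each 0.98), and Irf9 to Psmb8, Irf1 and the peptide transporter Tap1 (each 0.98). Nearest to Irf7 were the antiviral tetherin Bst2, the ISG15 protease Usp18 and the nucleic acid sensor Zbp1, each at 0.97. Irf8 was nearest to Aif1 (0.93), the myeloid gene that encodes IBA1, then to Myc and Rps19bp1 (both 0.92). Socs1 was nearest to the potassium channel Kcnn4 (0.95), the oligodendrocyte lineage factor Olig2 (0.93) and Ormdl2 (0.92). The matches of Irf2 (Rrp9 and Msrb1 at 0.87, Trappc3 at 0.86) and Irf3 (Ceacam1 at 0.88, Hdac5 at 0.86, Gab3 at 0.85) were weaker.

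The rest of the pathway was read from lists of ligands, receptors and kinases, regulators, sensors, partners and targets. Ligand genes did not pass in any comparison (0 of 16 measured), and their median difference from Control lay between -0.07 and -0.04. Their probe sets were dim on average, with a mean log2 signal of 4.32 against array medians of 5.06 to 5.12. Small differences in dim probe sets do not show that the ligands were unchanged. Ifng, which encodes interferon gamma, averaged 4.62 in Control, 4.48 in TMZ, 4.46 in Anti-PD-1 and 4.55 in Combination, and Ifnb1 averaged 3.20, 3.34, 3.26 and 3.13. Ifnl2, a type III interferon, was at -0.08, -0.20 and -0.20 from Control, and Ifna9, a type I interferon, at -0.07, -0.24 and -0.34. Ifnl2 was not dim, with group means of 6.72 to 6.92. All its treated arrays lay below all Control arrays, as in 1.87% of all genes. Of 9 receptor and JAK kinase genes 0 were called, with medians from -0.07 to -0.03. Ifnar1, Ifngr1, Ifngr2, Jak1, Jak2 and Tyk2 lay between -0.13 and 0.13 of Control in every treated group. The type I receptor chain Ifnar2 was at -0.16 ± 0.06 in TMZ and -0.21 ± 0.06 in Anti-PD-1 (adjusted p = 0.388 and 0.19). Both groups lay below Control without overlap in Ifnar2, as in 6.81% and 8.33% of all genes. The type III receptor chain Ifnlr1 went the other way in Combination, at 0.28 ± 0.14 (adjusted p = 0.477), and was at -0.03 in TMZ and -0.07 in Anti-PD-1. Its probe set was dim, with group means of 4.20 to 4.56. Mean signals of the receptors named, Ifnlr1 included, lay closer to Control than those of Irf7, Irf1, Stat2 and Irf9 did, a difference that was not tested.

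Among 16 negative regulators 0 were called, with medians from -0.01 to 0.04. Usp18, which removes ISG15 and blocks the type I receptor, had the widest differences among them, at -1.40 ± 0.40 in TMZ, -1.98 ± 0.40 in Anti-PD-1 (adjusted p = 0.0616) and -1.10 ± 0.40 in Combination. Trim21, an interferon-induced ubiquitin ligase that acts on several IRFs, was at -0.56, -0.82 and -0.24. Socs3, the inhibitor mainly of STAT3 signalling, was at -0.37, -0.40 and -0.45, as even across treatments as Socs1. Of 21 measured genes that sense nucleic acids or activate IRFs, 16, 19 and 16 had a lower mean in TMZ, Anti-PD-1 and Combination, with 0 called. Among these, the RNA sensor Ifih1 was at -0.95, -1.07 and -0.85, and its relative Dhx58 at -0.57, -0.58 and -0.47.

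Partner factors and coactivators (14 measured) had medians of -0.11, -0.16 and -0.15, with 0 called. Ciita, the class II MHC activator that interferon gamma induces, was at -0.26 ± 0.07, -0.37 ± 0.07 (adjusted p = 0.0615) and -0.15 ± 0.07. Cebpa, a myeloid differentiation factor, was at -0.35, -0.25 and -0.55. Of 6 other STAT and IRF genes 0 were called, with Stat5a at -0.33, -0.08 and -0.05 and Stat3 at -0.17, -0.22 and -0.12. The 18 ISGF3 and IRF7 targets measured had medians of -0.60, -0.75 and -0.48, and the 18 GAS and IRF1 targets had -0.77, -1.35 and -0.43, beside member medians of -0.42, -0.71 and -0.33. Targets and members were not tested against each other, and Irf7 itself (-1.06, -1.42 and -0.79) lay below both target medians in every treated group. Bst2 (-2.56 ± 0.45, adjusted p = 0.0495) and Gbp3, a guanylate-binding protein (-1.69 ± 0.30, adjusted p = 0.0495), passed in Anti-PD-1, and no other target on either list passed in any comparison.

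Of 13 lists of cell type markers, some moved with these values and others did not. All 15 dividing-cell markers were lower in each treated group, with medians of -0.80, -0.86 and -0.79, and 3 (Ccna2, Ect2 and Hmmr), 8 and 0 of them were called. Their scores (mean log2 signal relative to each gene's overall mean) ran from 0.29 to 0.92 in Control, -0.36 to -0.05 in TMZ, -0.33 to -0.24 in Anti-PD-1 and -0.20 to -0.14 in Combination. The 6 lower members correlated with that score at 0.80 to 0.89 over the 12 arrays and at 0.36 to 0.63 without Control replicates 1 and 2. Microglia markers (13 measured) had medians of -0.24, -0.20 and -0.17, and scores from 0.01 to 0.26 in Control, -0.31 to 0.09 in TMZ, -0.17 to 0.01 in Anti-PD-1 and -0.02 to 0.11 in Combination. The 6 members correlated with the microglia score at 0.69 to 0.90, or 0.36 to 0.85 without those 2 arrays. Monocyte and macrophage markers (12 measured) had medians of -0.10, -0.19 and -0.15, and scores from -0.12 to 0.42 in Control and -0.21 to -0.02 in Anti-PD-1, where Plac8 was called (-0.69, limma adjusted p = 0.0326). Markers of T cells, on which PD-1 blockade acts, (10 measured) had medians of -0.15, -0.04 and -0.11, with scores from -0.02 to 0.16 in Control and -0.09 to 0.06 in Anti-PD-1. Their mean log2 signal was 4.61, below the array medians, so small differences do not show that T cells were unchanged. Natural killer markers were dimmer, at 3.95. Neuron markers (13 measured) had medians of 0.05, 0.07 and 0.03, with scores from -0.08 to 0.01 in Control and 0.02 to 0.07 in Anti-PD-1. The 6 members correlated with the neuron score at -0.88 to -0.58, or -0.71 to -0.03 without those 2 arrays. Endothelial markers (10 measured) ran opposite to the members, with medians of 0.21, 0.10 and 0.17 and 9, 8 and 9 of 10 higher, none called. Their scores ran from -0.18 to -0.09 in Control, -0.08 to 0.46 in TMZ, -0.05 to 0.06 in Anti-PD-1 and -0.07 to 0.06 in Combination, and TMZ replicate 2 held the 0.46. The 6 members correlated with the endothelial score at -0.63 to -0.41, or -0.68 to -0.31 without Control replicates 1 and 2. Their r was 0.57 to 0.88 with the monocyte and macrophage score, or -0.12 to 0.67 without those 2 arrays. With the T cell score it was 0.74 to 0.79, or 0.40 to 0.49 without them. For plasmacytoid dendritic cells it was 0.78 to 0.98, or 0.31 to 0.95 without those 2 arrays. That list holds Bst2, which is also on the list of ISGF3 and IRF7 targets. Its 10 markers had medians of -0.11, -0.08 and -0.06, with 3, 4 and 4 of them higher than Control. How far Bst2 alone carried that r was not tested. For conventional dendritic cells r was 0.60 to 0.89, or 0.22 to 0.78 without those 2 arrays. For natural killer cells r was 0.57 to 0.82, or -0.05 to 0.49 without them. For astrocytes it was 0.53 to 0.78, or 0.44 to 0.83 without them. Oligodendrocytes (0.22 to 0.58), B cells (-0.09 to 0.28) and neutrophils (-0.30 to -0.11) followed the members less or not at all. The part of cell makeup in the members' differences was not tested. In Anti-PD-1 the neuron covariate cannot separate makeup from treatment, because the neuron score itself did not overlap between Control and Anti-PD-1. The neuron score of TMZ (-0.04 to 0.05) and of Combination (-0.04 to 0.03) overlapped Control. How far the covariate separates makeup from treatment in those groups was not tested.

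**Figure D5:**
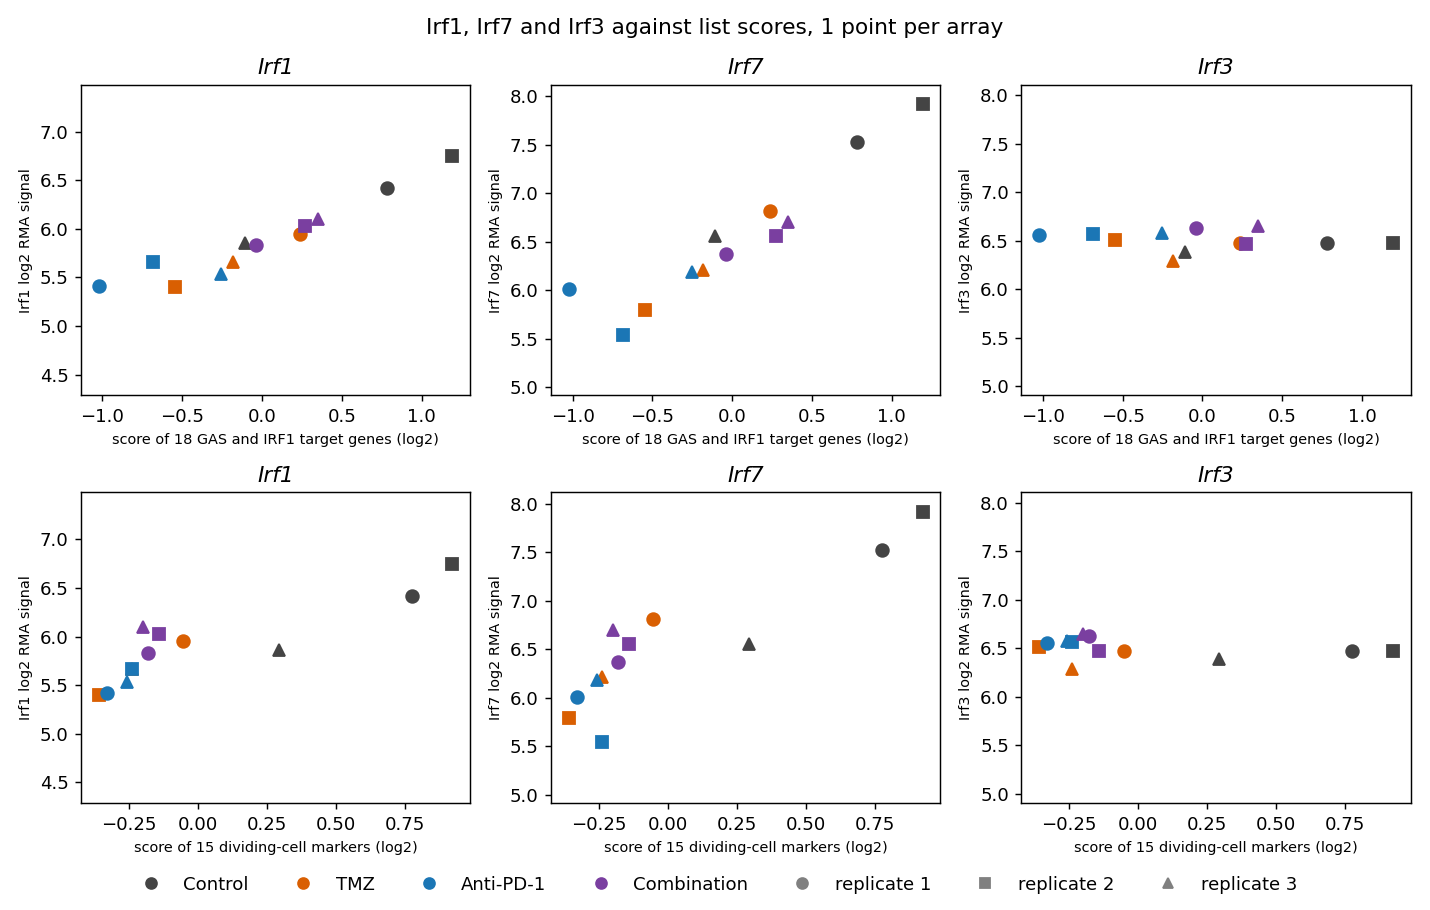
Log2 RMA signal of Irf1, Irf7 and Irf3 (y axes) against the scores of 18 GAS and IRF1 target genes (top) and of 15 dividing-cell markers (bottom), 1 point per array. Across the 12 arrays Irf1 and Irf7 are higher where the target score is higher, though not in strict order within Anti-PD-1, whereas the dividing-cell score sets Control (0.29 to 0.92) apart from all treated arrays (-0.36 to -0.05), and Irf3 is level in both.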

How the data were processed

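The submitters' processing notes name RMA and the Affymetrix Expression Console, with no version. The deposited values fit log2 RMA signals by their range and are given for 41345 probe sets on 12 arrays. RMA quantile normalises the arrays together, so a shift shared by all genes is not visible. The array annotation gave 1 symbol to 23521 probe sets, several to 1814, and did not list 16010. The brightest probe set of a gene was kept (22180 genes), with no filter. limma 3.58.1 in R 4.3.3 fitted a mean per group to all 12 arrays (8 residual degrees of freedom) with eBayes defaults and two-sided tests, and the script was tested on simulated data. The design is 3 arrays per group, whose number limits the precision. Alternatives were a filter (mean of at least 5), an intensity trend, only the groups compared, a replicate block, all probe sets, array weights, median centring, a neuron covariate, averaged probe sets, each array left out and, chosen after seeing the data, the second Irf8 probe set. The members, gene lists and naming rule were chosen with earlier results of these data known. Named beside the members were list genes called in any comparison, or else the 2 with the smallest F test p, with a fixed set of 12 pathway genes, of which 1 was not analysed here, and the 3 genes most correlated with each member.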

Additional observations from a re-analysis of the deposited data

Results flagged for a closer look

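For several members the arrays of an agent given alone lay on 1 side of the Control mean, and those of the agent added to the other agent lay on the opposite side of that other agent's mean. All 3 TMZ arrays lay below the Control mean while all 3 Combination arrays lay above the Anti-PD-1 mean for Stat2 (interaction 0.83 log2), Irf1 (1.12), Irf7 (1.69), Irf8 (0.65) and Irf9 (0.95). The same was seen for the antibody, with Anti-PD-1 below Control and Combination above the TMZ mean, for Irf1, Irf7 and Irf9 (interaction 1.12, 1.69 and 0.95). The limma interaction test gave adjusted p from 0.259 to 0.428 for these 5 genes, so none passed. The second Irf8 probe set gave an interaction of 0.05 ± 0.24 (SE). All 5 interactions use the same 3 Control arrays. The share of all genes with the same pattern is not known here, so the pattern cannot be read as particular to these members.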

How the results depend on the processing

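Of 1224 values of single members under alternatives, 1174 kept their direction and their side of the threshold, 22 passed it in addition, and 28 took the opposite sign, none of them called. Part of this count was fixed in advance. The filter, the trend and leaving out an array of a group not compared leave a difference unchanged. Swapping the Irf8 probe set leaves the differences of the other members unchanged. No member passed in the main fit, so keeping the side of the threshold meant staying uncalled. The number of members called was unchanged in 167 checks and differed in 7. In Anti-PD-1 against Control it was 1 with the filter on mean signal, 5 with the intensity trend and 3 with array weights. With each array left out it ran from 0 to 4 in TMZ, 0 to 5 in Anti-PD-1, 0 to 4 in the interaction and 0 to 4 in the F test, in each case through Control replicate 3. All genes called in Anti-PD-1 numbered 65, against 2 over all probe sets, 148 with the filter, 381 with the trend, 260 with array weights, 0 with the neuron covariate, 0 with only the groups compared and 1 to 686 with 1 array left out. In TMZ they numbered 22, against 1, 14, 113, 38, 0 and 0 under the same 6 settings in that order. The cause was not tested. Same-numbered arrays did not deviate together (median r -0.01 over 18 pairs, 1 pair over 0.1, and 2 of 12 arrays closest to their own number), and with the replicate block 0 members and 20 genes were called in Anti-PD-1 and 4 genes in TMZ.

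Most sign changes were in differences near 0, but those of the second Irf8 probe set were not. Median centring put Irf2 at 0.00071 (Combination against Control). The neuron covariate gave Irf3 0.013 (TMZ against Control), Irf2 0.015 (Combination against Control), Irf3 -0.014 and Socs1 -0.027 (Combination against Anti-PD-1), Irf1 -0.050 (TMZ against Anti-PD-1), and interactions of -0.011 for Irf2 and -0.027 for Irf3. Averaged probe sets gave Irf8 0.044 (Combination against TMZ). The second Irf8 probe set, chosen after seeing the data, gave 0.094 in place of -0.70 (Anti-PD-1 against Control), 0.080 in place of -0.44 (Combination against Control), -0.014 (Combination against Anti-PD-1), 0.14 (Combination against TMZ) and -0.15 in place of 0.31 (TMZ against Anti-PD-1). With 1 array left out, Irf3 ran from -0.062 to 0.049 (TMZ against Control), from -0.020 to 0.071 (Combination against Anti-PD-1) and from -0.035 to 0.090 (interaction). Irf2 ran from -0.054 to 0.024 (Combination against Control) and Socs1 from -0.091 to 0.095 (Combination against Anti-PD-1). Against TMZ, Combination ran from -0.023 to 0.22 for Stat2, -0.15 to 0.041 for Irf8 and -0.050 to 0.17 for Socs1. TMZ against Anti-PD-1 ran from -0.0076 to 0.27 for Irf1 and -0.14 to 0.023 for Socs1. Signal over background was not available here, so no probe set carries a detection call, those of Irf8 and Socs1 included. This limit weighs most on dim probe sets, such as those of Ifng and Ifnb1, the T cell markers and the second Irf8 probe set.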
